A study of Homo sapiens with 12 samples.

Results

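The 10 genes described here encode the insulin and insulin-like growth factor 1 receptors (INSR and IGF1R), the receptor substrates IRS1 and IRS2, the PI3-kinase inhibitor PIK3IP1, the forkhead transcription factors FOXO1, FOXO3 and FOXO4, and the sestrins SESN1 and SESN3. They were taken by symbol from the 60564 genes of the expression table, and the set was put together with earlier results of these data known. All 10 were among the 12860 genes tested. In the underlying study, RNA was sequenced from CFPAC-1 and BxPC-3, established human lines of pancreatic ductal adenocarcinoma. Each line was grown either in normal culture (control) or without serum for 48 h, a treatment used to make cells grow primary cilia (induced). The series text gives the share of ciliated CFPAC-1 cells as 7% in control and 39% in induced culture, and that of BxPC-3 cells as 5% and 78%. The 12 libraries form 4 groups of 3. No other agent or genotype is named in the labels, each line is a model of its own, and loss of serum and gain of cilia come together in every induced library and cannot be told apart.

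Insulin and the insulin-like growth factors bind receptor tyrosine kinases at the cell surface, which phosphorylate IRS1 and IRS2 and so recruit PI3-kinase. The AKT kinase that is then activated phosphorylates FOXO proteins and keeps them out of the nucleus, so withdrawal of growth factors lets FOXO enter it and act on its targets, among which are genes of the pathway itself such as INSR and IRS2. Sestrins, first known as stress-induced proteins, hold back mTORC1, the growth-promoting kinase complex further down the same pathway. FOXO activity is set mostly by phosphorylation and location, neither of which RNA levels measure.

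Levels are given as FPKM, which is corrected for gene length, and changes as differences of log2(FPKM + 1), the deposited scale. On that scale the change of a gene below a few FPKM is understated. Tests were made with limma across all 12860 genes, with Benjamini-Hochberg adjustment and a threshold of 0.05. Whether the 3 libraries of a group came from separate cultures is not in the labels, so a p-value here weighs a difference only against the spread of these libraries, and that spread may be technical. Read depth is unknown, because the table holds no counts. The antisense and other genes that overlap members reached at most 0.340 FPKM, and how the counting treated strand is not given.

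The libraries labelled CFPAC-1 control 2 and 3 stood apart from the rest of that line. Their mean correlation over tested genes was 0.990 with each other, 0.803 with the other 4 CFPAC-1 libraries and 0.785 with BxPC-3, while those other 4 correlated at 0.944 among themselves. LUM, a matrix proteoglycan gene of the fibroblast list, reached 36.8 FPKM in control 1 and 25.5, 108 and 103 FPKM after induction, but 0.0532 and 0 FPKM in control 2 and 3. COL1A1 and COL3A1 of that list went the other way. COL1A1 was at 0.0445 FPKM in control 1, 4.27 and 4.28 FPKM in control 2 and 3, and at most 0.140 FPKM after induction. COL3A1 was at 0.0733 FPKM, at 1.98 and 2.06 FPKM, and at most 0.160 FPKM. Markers of duct epithelium differed in both directions. KRT19 was at 532 FPKM in control 1, 7.42 and 7.67 FPKM in control 2 and 3 and 254 to 627 FPKM after induction. EPCAM was at 14.8, at 0.963 and 1.04, and at 11.2 to 14.8 FPKM. MUC1 (9.23 against 1.49 and 1.58 FPKM) and CDH1 (0.489 against 0.192 and 0.180 FPKM) were also lower in control 2 and 3 than in control 1. KRT8 was level (274 against 270 and 316 FPKM). KRT18 (254 against 318 and 311 FPKM), SOX9 (17.9 against 55.1 and 53.0 FPKM) and KRT7 (0.340 against 2.01 and 1.92 FPKM) were higher there. A change measured against control 2 and 3 cannot be told apart from a difference in the cells those libraries hold. CFPAC-1 changes of the 10 genes and of the named list genes are therefore given with and without them, and without them the control group is 1 library whose spread is taken from the other groups. All 8 markers of duct epithelium reached 1 FPKM in at least 1 library, with a summed level between 472 and 1815 FPKM. In the 6 CFPAC-1 libraries, however, CDH1 stayed at 0.180 to 0.892 FPKM and KRT7 at 0.340 to 2.01 FPKM. Of the other lists, 3 of 6 fibroblast genes (COL1A1, COL3A1 and LUM), 1 of 5 immune genes (CD14), 1 of 4 acinar genes (PRSS1), and none of 4 endothelial or 4 endocrine genes reached 1 FPKM in any library. The summed fibroblast level was 6.31 to 37.3 FPKM in CFPAC-1 control, 26.0 to 110 in CFPAC-1 induced, 1.33 to 1.74 in BxPC-3 control and 1.09 to 1.41 in BxPC-3 induced libraries. In CFPAC-1 it was mainly LUM, other than in control 2 and 3. The summed immune level ran from 0.543 to 4.48 FPKM, from 0.533 to 0.617, from 2.16 to 2.41 and from 6.68 to 7.18 in the same order of groups. The mitochondrial share of summed FPKM ran from 11.6% to 34.0%, and the part of these differences in the results was not tested.

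**Figure D1:**
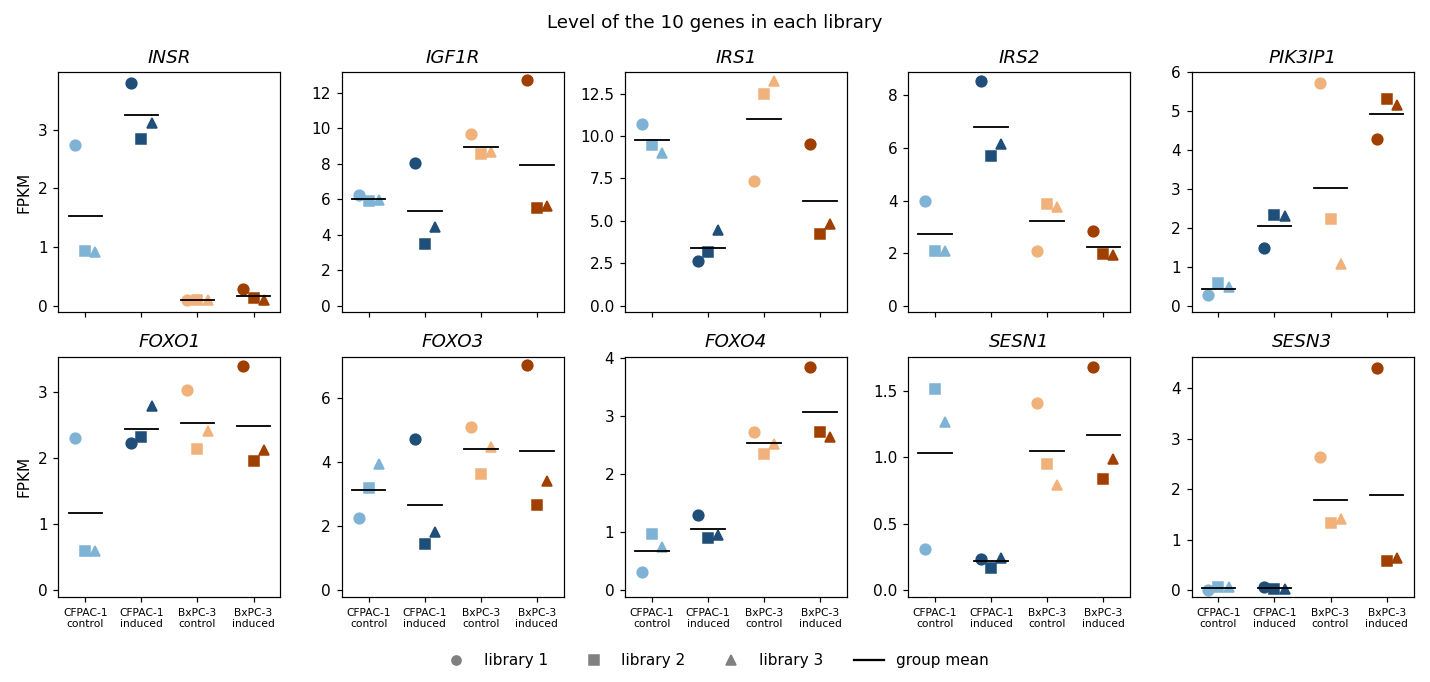
FPKM of each of the 10 genes in each of the 12 libraries, on a linear axis for each gene, with a point per library and the 4 groups side by side. INSR lies below 0.3 FPKM in every BxPC-3 library, and SESN3 below 0.1 FPKM in every CFPAC-1 library.

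With all libraries, IRS1 fell and IRS2 and INSR rose in serum-starved CFPAC-1 cells. In that fit 3 of the 10 genes passed the test, 2 higher and 1 lower, against 16.6% of all tested genes (7.85% higher and 8.77% lower). The median change of the 10 genes was 0.16, and that of all tested genes was -0.09. Leaving out control 1 alone gave 5 calls, with FOXO1 and SESN1 added, beside 5403 calls among all 12860 tested genes. Leaving out control 2 or control 3 alone gave none of the 10, beside 506 of all tested genes in each case. Without control 2 and 3, none of the 10 passed limma's test, 3 had an unadjusted p below 0.05, and 1.73% of all tested genes passed.

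IRS1 (chromosome 2, 226731317 to 226799759, minus strand, GRCh38) encodes the substrate most tied to growth signalling. The CFPAC-1 controls held 10.7, 9.45 and 9.02 FPKM of it, and the starved libraries 2.62, 3.14 and 4.44 FPKM. All 3 control libraries, control 1 included, lay above all 3 induced libraries. The mean went from 9.73 ± 0.891 to 3.40 ± 0.939 FPKM (SD, n = 3 each), which is 2.86-fold lower, and the change was -1.30 with a standard error of 0.29 (limma, adjusted p = 0.0160). Without control 2 and 3 the change was -1.44 (limma, adjusted p = 0.122). The call was also lost when control 2 alone (adjusted p = 0.0595), control 3 alone (0.0556) or induced library 2 (0.0555) was left out of the limma fit.

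IRS2 (chromosome 13, 109752698 to 109786568, minus strand), the substrate that carries much of insulin's action in liver and islet and a known FOXO target, moved the other way. CFPAC-1 controls gave 3.99, 2.06 and 2.07 FPKM, against 8.57, 5.69 and 6.14 FPKM after induction. The groups did not overlap, although control 1 was the closest of the controls to the induced libraries. Mean IRS2 went from 2.71 ± 1.11 to 6.80 ± 1.55 FPKM (SD, n = 3 each), 2.51-fold higher, with a change of 1.09 and a standard error of 0.26 (limma, adjusted p = 0.0194). Leaving out control 2 and 3 brought the change to 0.63 (limma, adjusted p = 0.345). In limma fits without control 2, control 3 or induced library 3 the adjusted p was 0.0889, 0.0900 and 0.0520, and with CFPAC-1 fitted alone it was 0.0858.

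The promoters of the 10 genes were read for the forkhead core motifs bound by FOXO proteins, because IRS2 and INSR are known FOXO targets. The 250 bases upstream of 16 RefSeq starts of the 10 genes (GRCh38.p14) were searched on both strands for GTAAACA and CAAAACA. Their reverse complements are TGTTTAC and TGTTTTG, in that order. The single match that was found overlapped no other motif. GTAAACA was in none of the 16 windows and in 2.98% of the 35116 promoters of the table, and CAAAACA was in 1 of 16 and in 4.30% of all. The match lies in the IRS2 promoter, chr13:109786584-109786833 on the minus strand, 40 to 34 bases before the RefSeq start. It is shown 5′ to 3′ with the matching bases in capitals.
IRS2: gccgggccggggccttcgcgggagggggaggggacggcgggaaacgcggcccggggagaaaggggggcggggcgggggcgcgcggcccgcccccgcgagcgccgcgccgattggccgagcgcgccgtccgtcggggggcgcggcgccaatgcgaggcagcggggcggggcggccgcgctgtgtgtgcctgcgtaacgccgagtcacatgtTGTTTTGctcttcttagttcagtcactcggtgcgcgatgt
The match describes the letters of this window and is neither a measured site nor a cause of the levels above, and other parts of these genes were not searched.

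**Figure D2:**
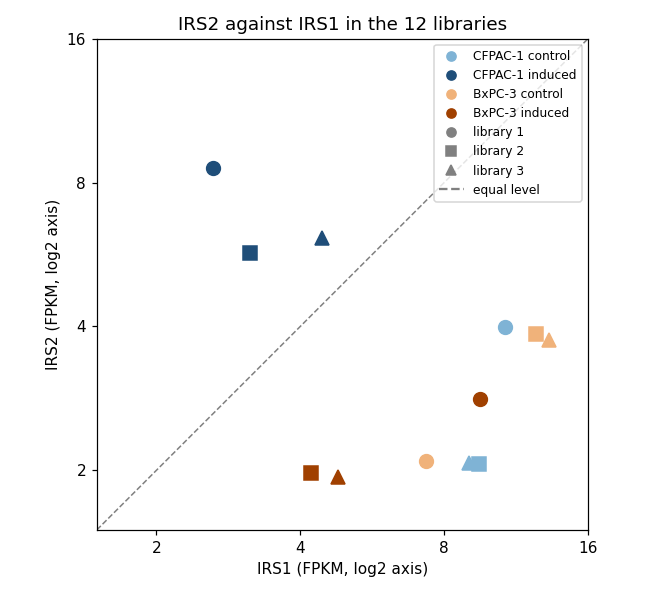
IRS2 FPKM against IRS1 FPKM, with a point per library, colours for the 4 groups and a line of equal levels. The 3 induced CFPAC-1 libraries lie above the line and the other 9 libraries lie below it.

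The balance of both substrates within a library separated induced CFPAC-1 from every other group. The ratio of IRS2 to IRS1 FPKM was 0.371, 0.219 and 0.230 in CFPAC-1 control and 3.27, 1.81 and 1.38 in CFPAC-1 induced libraries. In BxPC-3 it was 0.285, 0.310 and 0.283 in control and 0.296, 0.469 and 0.404 in induced libraries. IRS2 thus exceeded IRS1 in the 3 induced CFPAC-1 libraries and in none of the other 9. The log2 ratio in CFPAC-1 differed by 2.93 on average, or 7.60-fold. Against control 1 alone it differed by 2.44, or 5.43-fold. In BxPC-3 the difference was 0.39, or 1.31-fold, and between the induced lines BxPC-3 was 5.26-fold lower. The ratio was chosen after the values of both genes had been seen, so these values are a description with no test.

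INSR (chromosome 19, 7112255 to 7294034, minus strand) encodes the insulin receptor. Its CFPAC-1 control values were 2.74, 0.925 and 0.910 FPKM, and its induced values 3.80, 2.84 and 3.11 FPKM. Control 1 lay just under the lowest induced library, and control 2 and 3 lay far below both. The change was 0.82 with a standard error of 0.24 (limma, adjusted p = 0.0409), from a mean of 1.53 ± 1.05 to 3.25 ± 0.494 FPKM (SD, n = 3 each). Without control 2 and 3 it was 0.18 (limma, adjusted p = 0.730). The call was lost without any 1 of the 5 CFPAC-1 libraries other than control 1 (limma, adjusted p from 0.0826 to 0.169), without any of 5 BxPC-3 libraries (0.0508 to 0.0625), and with a pseudocount of 0.1 (0.0576), without the filter on low values (0.0904), with mitochondrial genes left out of the scaling (0.0745) or with CFPAC-1 fitted alone (0.165).

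IGF1R (chromosome 15, 98648539 to 98964530, plus strand), the receptor for insulin-like growth factor 1, passed no test in either line. It read 6.21, 5.92 and 5.96 FPKM in the CFPAC-1 controls, then 8.06, 3.47 and 4.42 FPKM after induction, so that the induced values lay on both sides of the control values. Its change was -0.22 (limma, adjusted p = 0.643), and -0.26 without control 2 and 3 (limma, adjusted p = 0.849). The ratio of INSR to IGF1R within a library was 0.441, 0.156 and 0.153 in CFPAC-1 control and 0.471, 0.820 and 0.704 in induced libraries. Control 1 was again nearer to the induced libraries than to the other controls.

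PIK3IP1 (chromosome 22, 31281593 to 31292534, minus strand), a membrane protein that binds and restrains PI3-kinase, was low in CFPAC-1 control at 0.264, 0.569 and 0.484 FPKM. The induced libraries held 1.49, 2.34 and 2.30 FPKM. No induced library overlapped a control, and control 1 was the lowest of all. The change of 1.07 (standard error 0.34) just missed the threshold (limma, adjusted p = 0.0525) and was 1.25 without control 2 and 3 (limma, adjusted p = 0.227). With a pseudocount of 0.1 it was 2.01 and passed (limma, adjusted p = 0.0260), as it did with CFPAC-1 fitted alone (adjusted p = 0.0489), with mitochondrial genes left out of the scaling (adjusted p = 0.0305), and without BxPC-3 control 1 (adjusted p = 0.0115) or control 3 (adjusted p = 0.0315). The mitochondrial rescaling also lowers the weight of the pseudocount, so it is not independent of the 0.1 setting.

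Of the FOXO genes, none passed the test in CFPAC-1. FOXO1 (chromosome 13, 40469953 to 40666597, minus strand) went from 2.30, 0.599 and 0.597 FPKM in the controls to 2.24, 2.32 and 2.79 FPKM in the induced set. Control 1 lay inside the induced range and control 2 and 3 well under it. The change was 0.76 (limma, adjusted p = 0.0772), and 0.06 without control 2 and 3 (limma, adjusted p = 0.960). Without control 1 it was 1.11 (limma, adjusted p = 0.00111). FOXO3 (chromosome 6, 108559835 to 108684774, plus strand) was at 2.25, 3.19 and 3.92 FPKM before and 4.72, 1.46 and 1.82 FPKM after induction, with the lowest and the highest value both in the induced group. Its change was -0.25 (limma, adjusted p = 0.642), and 0.07 without control 2 and 3. FOXO4 (chromosome X, 71096197 to 71103535, plus strand) was at 0.310, 0.961 and 0.738 FPKM against 1.29, 0.909 and 0.961 FPKM. The FOXO4 groups overlapped only through control 2, and the change was 0.31 (limma, adjusted p = 0.260), or 0.64 without control 2 and 3 (limma, adjusted p = 0.183). FOXO3 shares near-identical sequence with FOXO3B, listed at 0.517 to 1.70 FPKM, so reads may have been split between the pair.

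The sestrins were low in CFPAC-1. SESN1 (chromosome 6, 108986437 to 109094819, minus strand), a p53 and FOXO target, gave 0.310, 1.51 and 1.27 FPKM in the controls against 0.238, 0.170 and 0.244 FPKM after induction. Control 1 was close to the induced libraries and control 2 and 3 were well above them. The change of -0.68 (limma, adjusted p = 0.0770) was -0.11 without control 2 and 3 (adjusted p = 0.900). It passed limma's test without control 1 (adjusted p = 0.00226), with a pseudocount of 0.1 (adjusted p = 0.0448) and with mitochondrial genes left out of the scaling (adjusted p = 0.0424). The last of these settings also lowers the weight of the pseudocount, so it is not independent of the one before it. SESN3 (chromosome 11, 95165513 to 95232541, minus strand) was listed at 0 in control 1 and did not exceed 0.0652 FPKM in any CFPAC-1 library. Its change was 0.00 with all libraries and 0.06 without control 2 and 3.

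Across the 10 genes, 3 were higher without overlap in induced CFPAC-1 (IRS2, INSR and PIK3IP1) and 2 were lower without overlap (IRS1 and SESN1). Of all tested genes 31.6% did not overlap in this comparison, 14% higher and 17.6% lower. Without control 2 and 3, where 1 control library is left, 5 were higher (FOXO4 and SESN3 added) and 2 lower, against 60.9% of all tested genes, 27.2% higher and 33.7% lower. INSR, FOXO1 and SESN1 had in common that control 1 sat with the induced libraries, while for IRS1 and PIK3IP1 the 3 controls stood together.

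**Figure D3:**
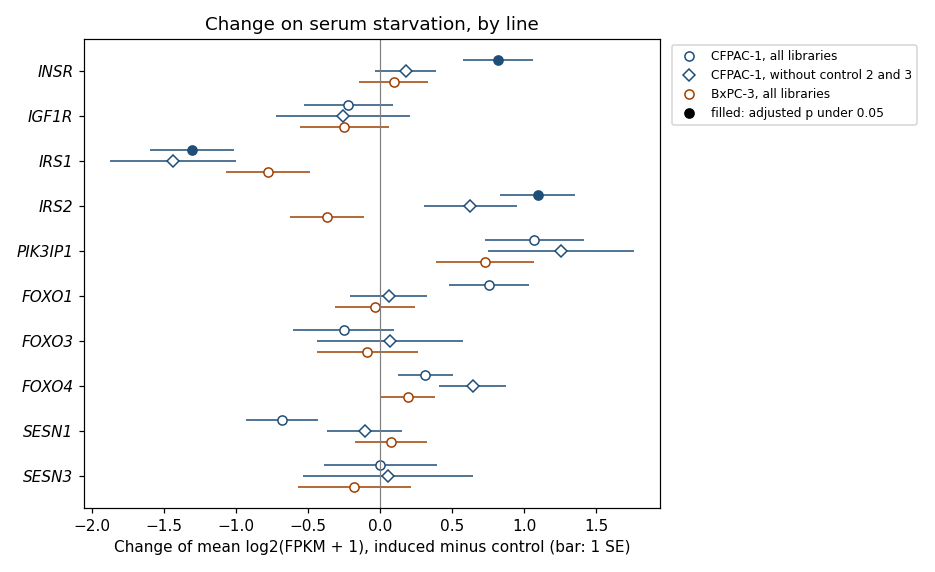
Change in log2(FPKM + 1) of each gene, induced minus control, in CFPAC-1 with all libraries, in CFPAC-1 without control 2 and 3, and in BxPC-3, with bars of 1 standard error. The IRS1 and PIK3IP1 values move little when control 2 and 3 are left out, and those of INSR, FOXO1 and SESN1 move close to 0.

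In BxPC-3, the line with the higher ciliated share after induction, none of the 10 genes passed the test. By limma 1 of 10 had an unadjusted p below 0.05, and 0.334% of all tested genes passed, with 1096 at an unadjusted p below 0.05. None of the 10 separated the induced from the control libraries without overlap, against 17.2% of all tested genes. The median change was -0.06 for the 10 genes and 0.06 for all tested genes.

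IRS1 had the largest change by size among them on the log2(FPKM + 1) scale, without passing. Its BxPC-3 control values were 7.33, 12.5 and 13.2 FPKM, and its induced values 9.52, 4.20 and 4.79 FPKM. Library 1 of each group went against the other libraries: the lowest control lay below the highest induced library. The change was -0.78 with a standard error of 0.29 (limma, adjusted p = 0.486). IRS2 had the same layout, with 2.09, 3.86 and 3.75 FPKM before and 2.82, 1.97 and 1.94 FPKM after induction, and a change of -0.37 (limma, adjusted p = 0.780). Both substrates thus read lower in induced libraries 2 and 3 than in control 2 and 3, and the reverse held for library 1.

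PIK3IP1 differed widely among the BxPC-3 controls, at 5.74, 2.23 and 1.07 FPKM. The induced libraries were close together at 4.28, 5.33 and 5.15 FPKM. Control 1 exceeded every induced library, and the change was 0.73 (limma, adjusted p = 0.598). Without control 1 it was 1.19 and passed (limma, adjusted p = 0.0313), the single call that leaving out any 1 library gave among the 10 genes in BxPC-3.

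The receptors and FOXO genes of BxPC-3 overlapped between the groups. INSR was barely detected, at 0.0942, 0.103 and 0.0878 FPKM before and 0.280, 0.135 and 0.0978 FPKM after induction. IGF1R was at 9.65, 8.55 and 8.65 FPKM and at 12.7, 5.48 and 5.59 FPKM, so that IGF1R exceeded INSR by 83.3 to 103 times in control and 40.7 to 57.1 times in induced libraries. FOXO1, at 3.04, 2.15 and 2.42 FPKM before and 3.40, 1.95 and 2.12 FPKM after induction, kept its control values inside the induced range. FOXO3 read 5.09, 3.62 and 4.47 FPKM and then 7.01, 2.65 and 3.40 FPKM, with induced library 1 above and the other two below the controls. FOXO4 read 2.73, 2.35 and 2.52 FPKM and then 3.85, 2.72 and 2.64 FPKM, and its change was 0.19 (limma, adjusted p = 0.878). The FOXO4 groups overlapped only where control 1 lay above induced libraries 2 and 3. SESN1 gave 1.41, 0.945 and 0.791 FPKM before and 1.68, 0.839 and 0.985 FPKM after induction. SESN3 gave 2.63, 1.33 and 1.40 FPKM and then 4.40, 0.577 and 0.645 FPKM, where induced library 1 was higher and libraries 2 and 3 lower than any control.

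Library 1 of a group often differed from libraries 2 and 3 in several of these genes at once. In the induced groups FOXO3 was higher in library 1 than in the mean of 2 and 3 by 1.12 in CFPAC-1 and 1.00 in BxPC-3 on the log2 scale. The same difference was 0.88 and 1.07 for IGF1R and 1.75 for SESN3 in BxPC-3. For IRS1 it was 0.94 in BxPC-3 induced and -0.73 in BxPC-3 control libraries. The log2 values of all tested genes had, within each of the 4 groups, a standard deviation of 0.534 to 1.08 for library 1 minus that mean, and of 0.259 to 0.282 for library 2 minus library 3. The labels name no batch.

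The changes of both lines were then set against each other in the same fit. None of the 10 genes passed the test of that difference, 1 had an unadjusted p below 0.05 by limma, and 2.45% of all tested genes passed. IRS2 came closest, at -1.46 (standard error 0.36, limma, adjusted p = 0.0593), where a negative value means a lower change in BxPC-3. It passed after quantile normalization (-1.62, limma adjusted p = 0.0453), without BxPC-3 control 1 (-1.67, adjusted p = 0.0279) and without CFPAC-1 control 1 (-1.69, adjusted p = 0.00258), and was -0.99 without CFPAC-1 control 2 and 3 (adjusted p = 0.259), when none of the 10 and 0.428% of all tested genes passed. Without CFPAC-1 control 1, 4 of the 10 passed, the others being INSR, FOXO1 and SESN1, beside 4148 of all 12860 tested genes.

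Induced BxPC-3 and induced CFPAC-1 cells differed in 6 of the 10 genes, 4 higher and 2 lower in BxPC-3, against 36.2% of all tested genes (21.4% higher and 14.8% lower). This comparison does not use CFPAC-1 control 2 and 3 other than for the shared estimate of spread. FOXO4, PIK3IP1, SESN1 and SESN3 were higher and IRS2 and INSR lower without overlap, and 54.5% of all tested genes did not overlap, 32.1% higher and 22.4% lower.

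On the log2(FPKM + 1) scale INSR had the largest difference by size, -1.86 with a standard error of 0.24 (limma, adjusted p = 0.000166). Its mean was 0.171 ± 0.0965 FPKM in BxPC-3 and 3.25 ± 0.494 FPKM in CFPAC-1 (SD, n = 3 each), 19.0-fold lower. Mean IRS2 was 3.03-fold lower in BxPC-3, with a difference of -1.26 (limma, adjusted p = 0.00323). FOXO4, a FOXO protein of the same DNA-binding class as FOXO1, was 2.92-fold higher in BxPC-3, with a difference of 0.98 (limma, adjusted p = 0.00245).

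The sestrins and PIK3IP1 were also higher in BxPC-3. SESN1 differed by 0.81, or 5.37-fold in mean FPKM (limma, adjusted p = 0.0255), and its call was lost without 4 of the induced libraries taken 1 at a time (CFPAC-1 induced 2 or 3, BxPC-3 induced 1 or 3, adjusted p from 0.0521 to 0.0880) and without the filter (0.0576). SESN3 differed by 1.21 (limma, adjusted p = 0.0313), and without BxPC-3 induced 1, the highest library, by 0.63 (adjusted p = 0.0371). In mean FPKM SESN3 was 47.2-fold higher, the largest fold of the 10 genes, over a CFPAC-1 mean of only 0.0397 FPKM. Its call was lost without any 1 of the CFPAC-1 induced libraries (limma, adjusted p from 0.0621 to 0.0784) and without the filter (0.0952). PIK3IP1 differed by 0.97, or 2.41-fold (limma, adjusted p = 0.0447), and missed the threshold under quantile normalization (0.0842), a pseudocount of 0.1 (0.0705), the mitochondrial rescaling (0.0509), no filter (0.119), with the replicate number as a block (0.0643), without CFPAC-1 control 2 and 3 (0.0513) or any 1 of the 6 induced libraries (0.0692 to 0.123), and also without CFPAC-1 control 2, CFPAC-1 control 3 or BxPC-3 control 2 (0.0551 to 0.0603). FOXO1 differed by -0.00 (limma, adjusted p = 0.997), and FOXO3, IGF1R and IRS1 differed by 0.57, 0.47 and 0.65 (limma, adjusted p = 0.236, 0.260 and 0.104). For FOXO3 the difference without CFPAC-1 induced 1 was 0.94 and passed (limma, adjusted p = 0.0432).

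By mean FPKM, IRS1 and then IGF1R were the highest of the 10 genes in both control groups, apart over libraries in CFPAC-1 and overlapping in BxPC-3. In induced CFPAC-1 the order was IRS2, IGF1R and IRS1, with means of 6.80, 5.31 and 3.40 FPKM, where neighbours in the order overlapped over libraries. In induced BxPC-3 it was IGF1R, IRS1 and PIK3IP1, at 7.93, 6.17 and 4.92 FPKM, and neighbours overlapped again. SESN3 was the lowest in both CFPAC-1 groups and INSR the lowest in both BxPC-3 groups.

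The rest of the pathway was read from 6 lists of 92 genes, of which 78 passed the filter on low values. In CFPAC-1 with all libraries 7 rose and 3 fell, 12.8% of those tested against 16.6% of all tested genes. Without control 2 and 3 it was 3 and 0, or 3.85% against 1.73%. In BxPC-3 none of the 78 passed, against 0.334% of all tested genes. None passed in the difference between the lines either, against 2.45% of all tested genes. Between the induced lines 11 were higher and 15 lower in BxPC-3, or 33.3%, against 36.2% of all tested genes.

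**Figure D4:**
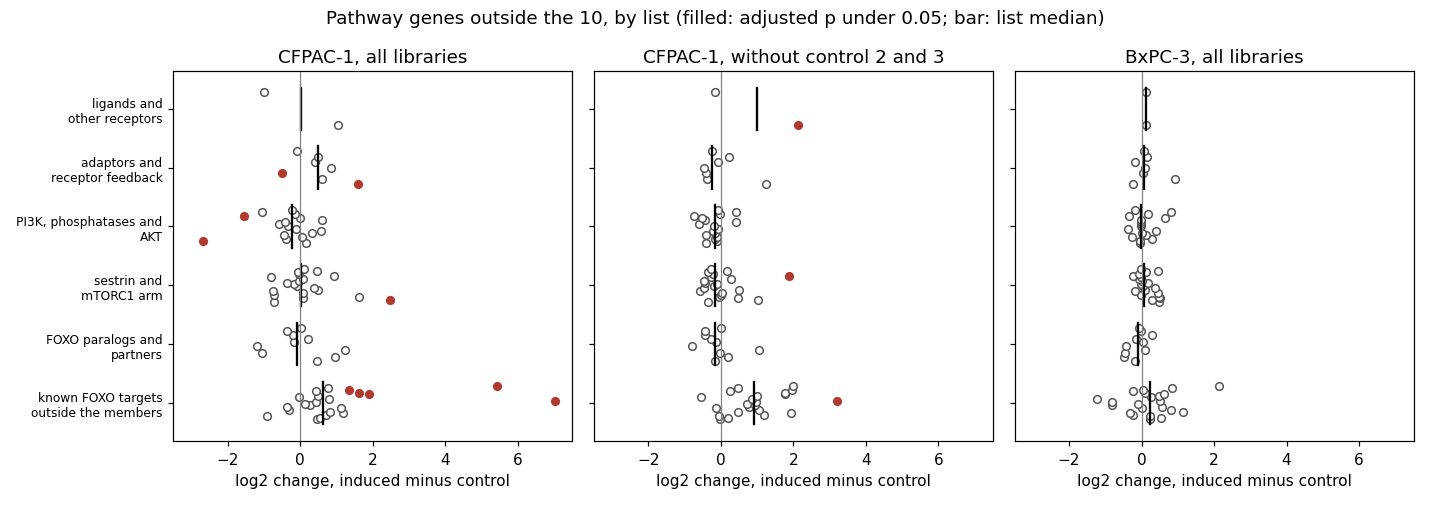
Change in log2(FPKM + 1) of each tested gene of the 6 pathway lists, induced minus control, in CFPAC-1 with all libraries, in CFPAC-1 without control 2 and 3, and in BxPC-3, with a line at each list's median. The FOXO target list has a median of 0.63 in CFPAC-1 with all libraries and of 0.91 without control 2 and 3.

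Among known FOXO targets outside the 10 genes, 5 of 22 tested rose in CFPAC-1 and none fell, where 7.85% of all tested genes were higher and 8.77% lower. The list held 26 genes, and PCK1, G6PC, TRIM63 and BNIP3 were under the filter and so not tested. BNIP3 was at 0.0279 FPKM in control 1, 9.90 and 10.3 FPKM in control 2 and 3, and at most 0.0694 FPKM after induction. The median of the 22 tested list genes was 0.63 against -0.09 for all tested genes, and 0.91 against -0.05 without control 2 and 3. In BxPC-3 it was 0.23 against 0.06. IGFBP1, a secreted binder of insulin-like growth factors that is induced by fasting, held 67.6, 0.239 and 0.288 FPKM in the controls and 321, 835 and 915 FPKM after induction. Control 1 lay far above the other controls and below all induced libraries, and the change was 7.03 (limma, adjusted p = 0.00585), or 3.19 without control 2 and 3 (limma, adjusted p = 0.0453). TXNIP, a brake on glucose uptake, changed by 5.43 (limma, adjusted p = 0.0133), and by 1.99 without control 2 and 3 (limma, adjusted p = 0.237). MXI1, a MYC antagonist, changed by 1.90 (limma, adjusted p = 0.0247), with 1.76 without them (adjusted p = 0.216). PDK4, the kinase that shuts down pyruvate dehydrogenase, changed by 1.62 (limma, adjusted p = 0.0206), with 1.77 without them (adjusted p = 0.151). SOD2, the mitochondrial superoxide dismutase, changed by 1.35 (limma, adjusted p = 0.0398), with 1.96 without them (adjusted p = 0.0881). Without control 2 and 3 IGFBP1 was the single gene of the list to pass. In BxPC-3 the values were 0.50 for IGFBP1 and 2.13 for TXNIP, and neither passed (limma, adjusted p = 0.983 and 0.668).

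Among the adaptors and feedback proteins, 1 of 7 tested rose and 1 fell in CFPAC-1, beside the 7.85% and 8.77% of all tested genes. GRB10, an adaptor that binds and inhibits both receptors, held 4.42, 2.59 and 2.84 FPKM in the controls and 20.1, 11.3 and 7.07 FPKM after induction. The groups did not overlap. Its change was 1.60 (limma, adjusted p = 0.00852), or 1.24 without control 2 and 3 (adjusted p = 0.166). PTPN1, a phosphatase that switches the insulin receptor off, changed by -0.51 (limma, adjusted p = 0.0498), or -0.40 without them (adjusted p = 0.385). In BxPC-3 none passed, and SHC1 and PTPRF, the highest of the list, had changes of 0.06 and 0.08.

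Of 17 tested genes for PI3-kinase, phosphatases and AKT, 2 fell in CFPAC-1 and none rose, beside 8.77% of all tested genes lower and 7.85% higher. AKT2, one of the AKT kinases, held 4.63, 80.2 and 80.0 FPKM in the controls and 4.48, 3.99 and 4.19 FPKM after induction. Control 1 was level with the induced libraries, and the change of -2.68 (limma, adjusted p = 0.0396) was -0.11 without control 2 and 3 (limma, adjusted p = 0.856). PIK3R3, a regulatory subunit of PI3-kinase, changed by -1.55 (limma, adjusted p = 0.00974), or -0.74 without them (adjusted p = 0.198). In BxPC-3 INPPL1 and AKT2, the highest of the list, had changes of 0.01 and -0.05.

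Of 20 tested genes of the sestrin and mTORC1 arm, DDIT4, a stress-induced inhibitor of mTORC1, was the single one called in CFPAC-1, where 16.6% of all tested genes were called. It changed by 2.47 (limma, adjusted p = 0.0287), or 1.02 without control 2 and 3 (adjusted p = 0.524). EIF4EBP1, a repressor of translation that mTORC1 phosphorylates, had 1.61 (limma, adjusted p = 0.0571) and -0.04 without them. SESN2, the sestrin outside the 10 genes, had 0.93 (limma, adjusted p = 0.102) and passed at 1.88 without control 2 and 3 (adjusted p = 0.0382). In BxPC-3 EIF4EBP1 and DDIT4 had 0.49 and 0.30.

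None of the 10 FOXO paralogs and partners passed in either line, where 16.6% of all tested genes passed in CFPAC-1 and 0.334% in BxPC-3. SFN, a 14-3-3 protein of epithelial cells, had 0.97 in CFPAC-1 (limma, adjusted p = 0.0625), 0.19 without control 2 and 3, and -0.49 in BxPC-3. YWHAG, another 14-3-3 protein, had 0.22, -0.27 and -0.14 in the same order. Of the 5 ligands and other receptors, insulin and IGF1 were listed at 0 in every library, and IGF2 and IGF2R passed the filter. IGF2, a growth factor that binds IGF1R, held 0.559, 3.65 and 3.84 FPKM in the CFPAC-1 controls and 2.98, 8.76 and 7.00 FPKM after induction, where the groups overlapped through control 2 and 3. Its change was 1.05 (limma, adjusted p = 0.0978), and 2.12 without control 2 and 3, which passed (limma, adjusted p = 0.0382). IGF2R, a receptor that clears IGF2, had -0.999 and -0.15 in CFPAC-1, and in BxPC-3 IGF2 and IGF2R had 0.11 and 0.13.

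The list genes named between the induced lines are those with the largest differences among the called ones, whose share was close to that of all tested genes. Differences are given as BxPC-3 minus CFPAC-1 on the log2 scale, and every named gene was below 0.05 in limma's adjusted p. IGF2 differed by -2.53 and IGF2R by 1.10. GRB10 differed by -2.34, PTPN1 by 1.34 and SH2B1, an adaptor of the insulin receptor, by -0.97. SGK1, a kinase related to AKT, differed by 2.00, PHLPP1, an AKT phosphatase, by 1.56, INPPL1, a lipid phosphatase, by -1.46 and PIK3R1, a PI3-kinase subunit, by -1.13. In the mTORC1 arm SESN2 differed by -1.32, MTOR by 1.05, AKT1S1 by 0.83 and RPTOR by -0.72. SFN differed by 2.10, its relative YWHAQ by -1.51 and FOXO6, a further FOXO gene, by -1.10. Among FOXO targets IGFBP1 differed by -8.73, KLF2 by -2.62, TNFSF10, the ligand TRAIL, by 2.34 and PDK4 by -1.90.

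The likeness of the 10 genes to other genes was described by Pearson's r of log2(FPKM + 1), each gene centred within its line, over the 10 libraries other than CFPAC-1 control 2 and 3. These libraries share the starvation contrast and the difference of library 1 from the others, so r has no test. The nearest gene was TP63 for FOXO1 (0.952), NCOA3 for FOXO3 (0.991), NFIL3 for FOXO4 (0.984), PRDM2 for IRS1 (0.982) and MNT for IRS2 (0.989). It was JRKL for INSR (0.971), SPIN4 for IGF1R (0.988), GNB2 for PIK3IP1 (0.984), GNE for SESN1 (0.988) and PAX7 for SESN3 (0.995). Among the 10 genes themselves, r was 0.93 for FOXO3 with IGF1R, 0.91 for FOXO1 with SESN3 and -0.82 for IRS1 with PIK3IP1. The r values of SESN3 rest mainly on BxPC-3, because SESN3 did not exceed 0.0652 FPKM in CFPAC-1. In BxPC-3 it was highest in induced library 1, at 4.40 FPKM against 0.577 and 0.645 FPKM in induced libraries 2 and 3.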

How the data were processed

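The authors deposited log2 values of FPKM + 1 for 60564 genes in 12 libraries, per the file headers, and FPKM was recovered by undoing the log. FastQC, StringTie and the build GRCh38 appear, with no version, in the submitters' processing notes. The aligner, annotation and strand setting were not given in the sources used here. Genes that reached 1 FPKM in 3 or more of the 12 libraries entered the fit with limma 3.58.1 in R 4.3.3 on group means (8 residual degrees of freedom, two-sided, Benjamini-Hochberg over all tested genes, threshold 0.05), after the procedure had been tested on simulated data. The members, lists and rules were chosen with earlier results of these data known. All 10 members are named. Of each pathway list, up to 4 called genes with the largest change are named per comparison, or the 2 with the highest mean level where fewer than 2 were called; SOD2, the EIF4EBP1 value and SESN2 in CFPAC-1 fall under the rule only in part and were added after their values were seen. Gene coordinates are GENCODE 29 (GRCh38), which held 58457 (96.5%) of the gene identifiers, and promoters are from RefSeq. Alternatives were quantile normalization, FPKM rescaled without mitochondrial genes, a pseudocount of 0.1 in place of 1, no filter, limma with trend and robust settings, a replicate block, each line fitted alone, and leaving out each library or CFPAC-1 control 2 and 3 together. The mitochondrial rescaling set the other genes of every library to a common sum above the summed FPKM, which ran from 258299 to 315377. Its pseudocount of 1 therefore weighs less than in the main fit, as a pseudocount of 0.1 does, and low values change more under both. Deviations of same-numbered induced libraries of the lines from their group means correlated at r = 0.29, 0.27 and 0.12 for numbers 1, 2 and 3. Number 3 matched number 2 best. This likeness was read from the data, as the labels tie the numbers to no shared day or batch.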

Additional observations from a re-analysis of the deposited data

How the results depend on the processing

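With CFPAC-1 control 2 and 3 left out, members called in CFPAC-1 went from 3 to 0, and all genes called from 2138 to 222; FOXO3 turned to 0.0695 in CFPAC-1 and to -0.16 in the difference between lines, and IGF1R in that difference to 0.00971. Leaving out 1 library gave 0 to 5 members called in CFPAC-1, 0 to 1 in BxPC-3, 0 to 4 in the difference and 3 to 6 between induced lines. All genes called ran from 506 to 5403, 2 to 249, 0 to 4148 and 3428 to 6078 in the same order. Uncalled members changed sign on leaving out 1 library: in CFPAC-1 SESN3 (-0.0248 to 0.0161); in BxPC-3 FOXO1 (-0.211 to 0.0772), FOXO3 (-0.42 to 0.15), SESN1 (-0.0887 to 0.196) and SESN3 (-0.76 to 0.13); in the difference FOXO3 (-0.17 to 0.54), FOXO4 (-0.255 to 0.0435), IGF1R (-0.38 to 0.27), PIK3IP1 (-0.73 to 0.12) and SESN3 (-0.76 to 0.13); between induced lines FOXO1 (-0.18 to 0.11). Quantile normalization gave 1 member called in the difference (0 as reported), and dropping the filter gave 3 between induced lines (6 as reported), with more genes to adjust over. Rescaling without mitochondrial genes turned SESN3 in CFPAC-1 to -0.000634, IGF1R in the difference to 0.0470 and FOXO1 between lines to 0.0434, and moved the median of all genes in CFPAC-1 by 0.143. Relative to that median IRS1, IRS2 and INSR were at -1.38, 1.41 and 1.25, against -1.21, 1.19 and 0.91 as reported. The pseudocount also weighs less under that rescaling, and its part in these larger values was not tested. Called genes split 783 higher and 1660 lower in CFPAC-1 under that rescaling and 1186 and 935 under quantile normalization (1010 and 1128 as reported). In the difference they split 88 and 167 under quantile normalization and 157 and 85 under the rescaling (172 and 143 as reported), with shifts of the median of 0.128 and 0.107; quantile normalization moved the median between induced lines by 0.103.

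All genes called in CFPAC-1 numbered 364 with that line fitted alone and 506 (control 2 or 3 left out) to 5403 (control 1) over leave-outs. In BxPC-3, with 43 as reported, they numbered 27 with the mitochondrial rescaling, 25 with a pseudocount of 0.1, 73 without the filter, 13 with the line alone and 2 (BxPC-3 control 3) to 249 (BxPC-3 control 1) over leave-outs. In the difference, with 315 as reported, they numbered 163 with a pseudocount of 0.1, 55 without CFPAC-1 control 2 and 3 and 0 (BxPC-3 control 2) to 4148 (CFPAC-1 control 1) over leave-outs. Beyond what these constructions show (fewer libraries, more genes), the cause was not tested. Same-numbered deviations of control and induced libraries correlated at -0.06, -0.02 and -0.08 in CFPAC-1, where no number matched itself best. In BxPC-3 they correlated weakly, at 0.15, 0.11 and 0.05, and number 3 matched number 2 best. With the replicate block 4, 0, 0 and 5 members were called in the 4 comparisons, beside 2428, 33, 306 and 4881 of all 12860 tested genes. FOXO1 in CFPAC-1 was added (limma adjusted p = 0.0494) and PIK3IP1 between lines was lost. The block changed no other member's call. Depth in reads is unknown, so members below about 1 FPKM carry an error that cannot be stated. They include INSR in BxPC-3, SESN3 in CFPAC-1, SESN1 in induced CFPAC-1, and PIK3IP1 and FOXO4 in CFPAC-1 control. FOXO1 and INSR were also below it in CFPAC-1 control 2 and 3.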
